A study of Homo sapiens with 6 samples.

Results

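The lysosome is the compartment in which cells break down proteins, glycans, nucleic acids and lipids, and 35 genes for its enzymes, its membrane proteins and one of its transcription factors are described here in U87 cells with raised miR-151a. The members were chosen by gene symbol: a probe set counted where the platform annotation named a single listed gene, and the brightest probe set of a gene, by mean log2 intensity over the 6 samples, stood for it. All 35 were measured, of 18132 genes in all, by 111 probe sets. Of these genes, 8 had 1 probe set and 27 had several, which served as a check.

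U87 is an established human glioblastoma cell line. The series compared 3 samples labelled miR-151a UP, in which this microRNA was overexpressed, with 3 samples labelled miR-NC, which overexpressed a control microRNA. Both groups are thus overexpressing cells, and the labels name neither the arm of the microRNA nor the method or duration of overexpression. They also do not state that replicates came from independent cultures, so that the p-values rest on a spread between samples that may be technical. In bulk RNA, fewer cells with a transcript and less of it per cell cannot be told apart.

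Soluble lysosomal enzymes are made in the endoplasmic reticulum, receive a mannose 6-phosphate tag in the Golgi and are carried to the lysosome, where a proton pump keeps the lumen acidic enough for them to work. Cathepsins cut proteins, glycosidases and sulfatases take glycans apart from their ends, and lipid hydrolases with small activator proteins degrade membranes. TFEB and its relatives raise many of these genes together by binding a short palindromic element, CACGTG with flanking bases, near their starts, and the Rag GTPases on the lysosome hold TFEB in the cytoplasm while amino acids are plentiful.

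The lysosomal genes did not move as one group. Of the 35, 6 rose with miR-151a, 7 fell and 22 did not pass an adjusted p of 0.05 in limma (Benjamini-Hochberg over all 18132 genes), where 15.4% of all genes passed, 7.27% higher and 8.11% lower. That is 37.1% of the members, with 17.1% higher and 20.0% lower. Neither this background nor the other shares over all genes or probe sets were matched to the members in intensity. Of the members, 24 were above the upper quartile of the array in all 6 samples, and the part of brightness in these shares was not tested. The rises were those of HEXA, TPP1, PSAP, MAN2B1, NAGLU and MCOLN1, and the falls those of ARSB, PPT1, LAMP2, LIPA, IDS, SCARB2 and GLB1. All were small: the log2 fold changes of the 13 ran from -0.41 to 0.47, and the median over the 35 was 0.01, against -0.01 over all genes. The median size regardless of sign was 0.14 for the members and 0.085 for all genes. No member reached a change of 2-fold. The 6 rises became 3 without miR-151a UP replicate 3 or without miR-NC replicate 2, and without 1 sample the count of falls was 6 or 7.

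**Figure D1:**
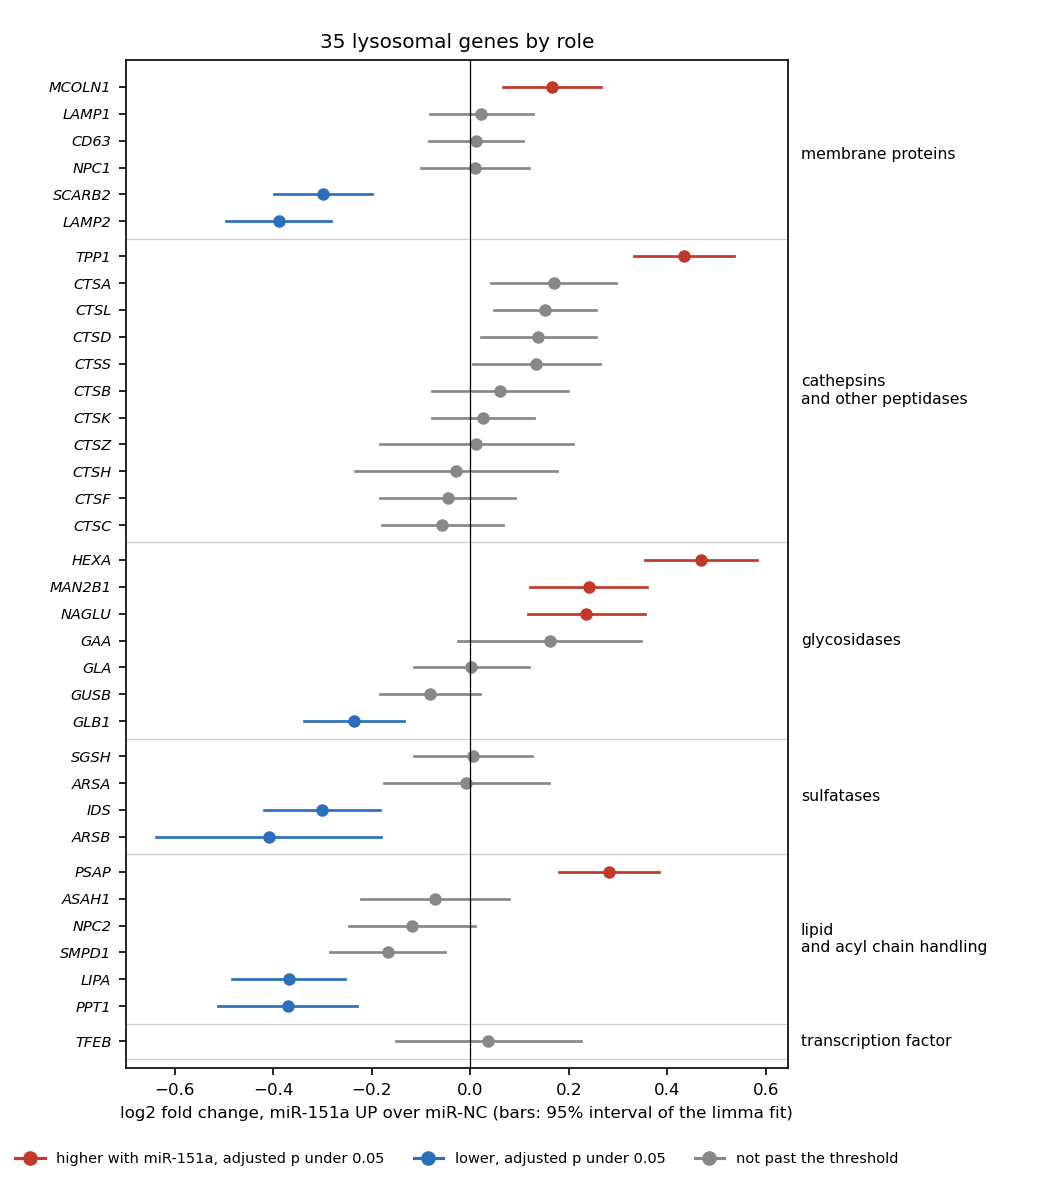
Log2 fold change of each of the 35 lysosomal genes, miR-151a UP over miR-NC (x axis), grouped by role (y axis), from the limma fit on 3 samples per group. Points are the estimates and bars their 95% intervals; red and blue mark adjusted p under 0.05, grey the rest. Red and blue points lie side by side among the membrane proteins, glycosidases and lipid-handling genes, while the 11 peptidases hold 1 red and 0 blue points.

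The groups separated for more members than passed the test. In 18 of the 35 genes, 51.4%, the 3 values of one group all lay on one side of the other. The miR-151a UP values were above in 9 and below in 9. Over all genes, not matched in intensity, the share was 34.5%. All 13 genes past the threshold were separated in this way, and so were 5 that did not pass. Of the members, 24 had intensities above the upper quartile of the array in all 6 samples and 5 lay below the median in all 6, namely CTSF, CTSH, CTSZ, GAA and ARSA. CTSZ was below the lower quartile of every array, with mean intensities of 10.4 with miR-151a and 10.3 with miR-NC. All 13 genes that passed lay above the median of the array in all 6 samples.

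The promoters of the members were searched for the core letters of the element that TFEB binds. RefSeq windows of GRCh38.p14, each of 300 bases and reaching from 250 bases before to 50 after a gene's start, were matched for 25 of the 35 members, 38 windows in all. The table used here held none for LAMP2, CTSB, CTSK, CTSS, HEXA, NAGLU, ARSA, SGSH, ASAH1 and PSAP. CACGTG, which reads the same on both strands, was found in a window of 8 of the 25 genes (32%) and of 8.77% of all 27305 genes with a window; by window the shares were 21.1% of 38 and 7.26% of 35116. The longer TCACGTG, searched on both strands and always containing the shorter motif, was found for 7 of the 25 genes and for 4.49% of all genes. Of the genes with a window, CACGTG was present in 1 of 3 that rose (MCOLN1), in 1 of 6 that fell (ARSB) and in 6 of 16 that did not pass (CD63, CTSA, CTSD, CTSF, GAA and LAMP1). A match describes letters, not binding, and these windows leave out other starts and distal elements. The 27305 genes with a window outnumber the 18132 genes of the arrays and were not matched to the members in kind or expression. No enrichment was tested. The windows below are those of the 2 genes with the motif that passed the test, of LAMP1 and CTSA, which carry 6 and 2 copies and did not pass, and of TPP1, which rose and has none in this window. Each is written 5′ to 3′ on the gene's strand, with the motif and any flanking T or A of the longer form in capitals.
MCOLN1 (chr19:7522374-7522673, plus strand): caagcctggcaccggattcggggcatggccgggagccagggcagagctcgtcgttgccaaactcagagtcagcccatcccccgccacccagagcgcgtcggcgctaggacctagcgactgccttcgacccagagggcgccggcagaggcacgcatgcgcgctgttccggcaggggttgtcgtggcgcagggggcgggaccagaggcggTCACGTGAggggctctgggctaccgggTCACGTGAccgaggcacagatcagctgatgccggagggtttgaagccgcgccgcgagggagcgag
ARSB (chr5:78985909-78986208, minus strand): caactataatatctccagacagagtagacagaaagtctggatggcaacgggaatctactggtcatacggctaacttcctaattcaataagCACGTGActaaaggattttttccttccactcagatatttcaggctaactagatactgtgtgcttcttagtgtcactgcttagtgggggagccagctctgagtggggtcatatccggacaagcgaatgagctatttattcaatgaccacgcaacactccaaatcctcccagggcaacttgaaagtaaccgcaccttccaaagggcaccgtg
LAMP1 (chr13:113296989-113297288, plus strand): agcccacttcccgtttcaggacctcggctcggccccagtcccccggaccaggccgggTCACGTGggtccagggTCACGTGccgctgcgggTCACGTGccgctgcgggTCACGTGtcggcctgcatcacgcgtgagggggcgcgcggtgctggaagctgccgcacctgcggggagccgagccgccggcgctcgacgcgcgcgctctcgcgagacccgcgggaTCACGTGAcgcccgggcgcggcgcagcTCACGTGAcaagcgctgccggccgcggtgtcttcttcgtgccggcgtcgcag
CTSA (chr20:45891085-45891384, plus strand): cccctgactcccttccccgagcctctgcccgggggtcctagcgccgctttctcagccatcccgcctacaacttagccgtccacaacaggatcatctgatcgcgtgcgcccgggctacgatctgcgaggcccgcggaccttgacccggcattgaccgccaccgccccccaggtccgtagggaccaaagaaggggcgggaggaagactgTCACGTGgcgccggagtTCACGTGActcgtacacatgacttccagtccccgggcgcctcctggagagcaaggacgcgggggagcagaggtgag
TPP1 (chr11:6619373-6619672, minus strand): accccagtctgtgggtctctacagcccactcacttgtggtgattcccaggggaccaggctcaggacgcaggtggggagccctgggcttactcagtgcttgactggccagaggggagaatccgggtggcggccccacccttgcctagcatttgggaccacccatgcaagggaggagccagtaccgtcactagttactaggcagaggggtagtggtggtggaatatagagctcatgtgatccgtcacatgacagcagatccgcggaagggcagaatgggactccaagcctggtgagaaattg
In MCOLN1 the copies begin 41 and 14 bases before the gene's start, and in CTSA 42 and 25 bases before it. ARSB has its copy 160 bases before the start, in 1 of its 2 windows. LAMP1 has a run of 4 copies between 192 and 142 bases before the start, a further copy at 28 bases and another that spans the start.

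TFEB itself, the only transcription factor among the 35, did not pass. Its intensity was 133, 109 and 117 in the 3 miR-151a UP samples, against 111, 126 and 113 in the 3 miR-NC samples, and the groups overlapped. On the log2 scale the change was 0.04, with a 95% interval from -0.15 to 0.23 (adjusted p = 0.82). Its other probe set lay below the lower quartile of the arrays and did not pass, at 0.18. A shift of the protein between cytoplasm and nucleus, the main way in which TFEB is controlled, is not seen by RNA.

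Among the 6 membrane proteins, 2 fell, 1 rose and 3 did not pass. Over all genes 7.27% passed as higher and 8.11% as lower. The same shares stand beside the count of each role group below, where groups are small and 1 gene changes the share. LAMP2 encodes one of the glycoproteins that line the lysosomal membrane, and one of its isoforms imports proteins in chaperone-mediated autophagy. Its intensities were 937, 912 and 903 with miR-151a, against 1214, 1230.0 and 1160.3 with miR-NC. All 3 miR-151a UP values lay below all 3 miR-NC values, a fall of 23.6% (log2 fold change -0.39, SE 0.046, adjusted p = 0.0016). LAMP2 has 9 probe sets, and 8 of them fell, with changes between -0.52 and -0.29; the remaining one stood at 0.10 without passing. In this test of single probe sets, with p adjusted over all 49293, the share that passed was 14.1%, made up of 6.81% higher and 7.27% lower. The sources used here do not tie the probe sets to LAMP2 isoforms.

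LAMP1, the paralog of LAMP2, had 3598, 3583 and 3777 intensity units with miR-151a, against 3558, 3586 and 3640.1 with miR-NC. These groups overlapped, and the estimate was 0.02 with an interval from -0.08 to 0.13 (adjusted p = 0.80). Of the other 2 probe sets of LAMP1, the dimmer one rose, at 0.19, and the brighter was at 0.13 without passing. Set against LAMP1 within each sample, the log2 ratio of LAMP2 lay between -2.06 and -1.94 with miR-151a and between -1.65 and -1.54 with miR-NC. Such a ratio of 2 probe sets has no meaning as a level, but its difference between groups does. It was -0.41, with the groups apart in 3 of 3 samples each (exact two-sided permutation p = 0.1, the smallest that 3 against 3 samples allow). Adjusted over the 3 ratios of this kind that were computed, this p was 0.1. Each such ratio reuses the values of its 2 genes and adds no separate evidence.

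SCARB2, which carries the enzyme glucocerebrosidase to the lysosome and is also called LIMP-2, was the other membrane gene that fell. It had 2192, 2278 and 2252 units with miR-151a and 2742, 2792 and 2731 units with miR-NC. The groups were clearly apart, with a fall of 18.7% (log2 fold change -0.30, SE 0.043, adjusted p = 0.0036). Another of its 4 probe sets also fell, at -0.30, and the remaining ones did not pass, at -0.30 and 0.00. The one at 0.00 was not dim. It lay above the upper quartile in all 6 samples, with means of 775 with miR-151a and 774 with miR-NC.

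MCOLN1, the calcium channel of the lysosomal membrane, rose. Its 3 miR-151a UP samples held 516, 505 and 508 units, against 445, 465 and 453 units in the miR-NC samples. The spread within each group was small and the groups did not overlap (log2 fold change 0.17, SE 0.043, adjusted p = 0.039). The call is a narrow one. It was lost without any 1 of the 6 samples, with adjusted p from 0.078 to 0.12, and with the mean over both probe sets (adjusted p = 0.071), in a range from 0.0031 to 0.12 over the alternatives; over all probe sets its own was 0.053.

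The cholesterol exporter NPC1 had 648, 699 and 678 units with miR-151a, against 677, 659 and 675 with miR-NC, and the change was 0.01 (interval -0.10 to 0.12, adjusted p = 0.92). NPC2, the soluble protein that hands cholesterol to NPC1, had 2241, 2337 and 2105 units with miR-151a, against 2443, 2328 and 2482 with miR-NC. Its groups overlapped through 1 sample each, and it did not pass (log2 fold change -0.12, adjusted p = 0.21). The ratio of NPC2 to NPC1 was lower in each miR-151a UP sample, with a difference of -0.13 on the log2 scale (exact two-sided permutation p = 0.1, adjusted p = 0.1). Neither gene passed alone, and how often other gene pairs separate in this way was not computed. CD63, a tetraspanin of late endosomes and lysosomes, stood at 0.01 with an interval from -0.08 to 0.11.

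The peptidases held 1 rise, that of TPP1, and 0 falls among 11 genes. At an unadjusted limma p under 0.05, 5 were higher and 0 lower; over all genes 12.8% were higher and 16.0% lower at that threshold. TPP1 removes tripeptides from the free ends of proteins, and its loss causes a childhood form of neuronal ceroid lipofuscinosis. It gave 1661, 1741 and 1711 units with miR-151a, against 1269, 1243 and 1271 units with miR-NC. Every miR-151a UP value exceeded every miR-NC value by a wide margin, a 1.35-fold rise (log2 fold change 0.43, SE 0.044, adjusted p = 0.00081). All 9 probe sets of TPP1 rose past the threshold, with log2 fold changes from 0.39 to 0.90. The largest, 0.90 and 0.89, came from a pair of less bright probe sets whose mean intensities were 366 and 218 with miR-151a, against 195 and 117 with miR-NC. TPP1 kept its call under all 14 alternatives that set no limit on size.

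The 10 cathepsins lay between -0.06 and 0.17, and 0 passed in limma, although 4 were higher at an unadjusted p under 0.05, as were 12.8% of all genes, and up to 3 passed as higher under an alternative. CTSL, a cysteine protease and a major one of the lysosome, came closest to the threshold. Its values were 2166, 2129 and 2102 with miR-151a, against 1935, 1959 and 1864 with miR-NC. The groups did not overlap (log2 fold change 0.15, SE 0.044, adjusted p = 0.057). With quantile normalization, a pseudocount of 32, removal of dim probe sets, a variance trend or the mean over probe sets of all genes it passed (adjusted p = 0.032, 0.0086, 0.034, 0.00071 and 0.032; range over all alternatives 0.00071 to 0.18).

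CTSD, the main aspartic protease of the lysosome, had 929, 883 and 952 units with miR-151a and 809, 846 and 856 units with miR-NC. CTSA, a carboxypeptidase that also stabilises beta-galactosidase and neuraminidase, had 3552, 3932 and 3706 with miR-151a and 3408, 3194 and 3341 with miR-NC. Both were separated by group without passing, at 0.14 (adjusted p = 0.11) and 0.17 (adjusted p = 0.078). CTSB, a cysteine protease often studied in glioma invasion, had 3607, 3981 and 3732 units with miR-151a, against 3817, 3592 and 3445 with miR-NC. Its groups overlapped, at 0.06 with an interval from -0.08 to 0.20. The other 3 probe sets of CTSB differed in sign, between -0.10 and 0.14, and 0 passed. CTSK, CTSZ, CTSH and CTSF, further cysteine cathepsins, stood at 0.03, 0.01, -0.03 and -0.05, with adjusted p from 0.67 to 0.94.

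For CTSC and CTSS another probe set passed the threshold, while the brightest did not. CTSC, also called dipeptidyl peptidase I, which activates granule proteases of immune cells, was at -0.06 by its brightest probe set (adjusted p = 0.55). Its other 2 probe sets fell past the threshold, at -0.20 and -0.36, and with the mean over probe sets the gene passed as lower (adjusted p = 0.011, range over the alternatives 0.011 to 0.91). CTSS, a cathepsin of antigen-presenting cells, was at 0.13 by its brightest probe set, with a 95% interval from 0.00 to 0.26 (adjusted p = 0.16), while its other probe set fell, at -0.21. With the mean of both the direction of CTSS turned, to -0.04.

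**Figure D2:**
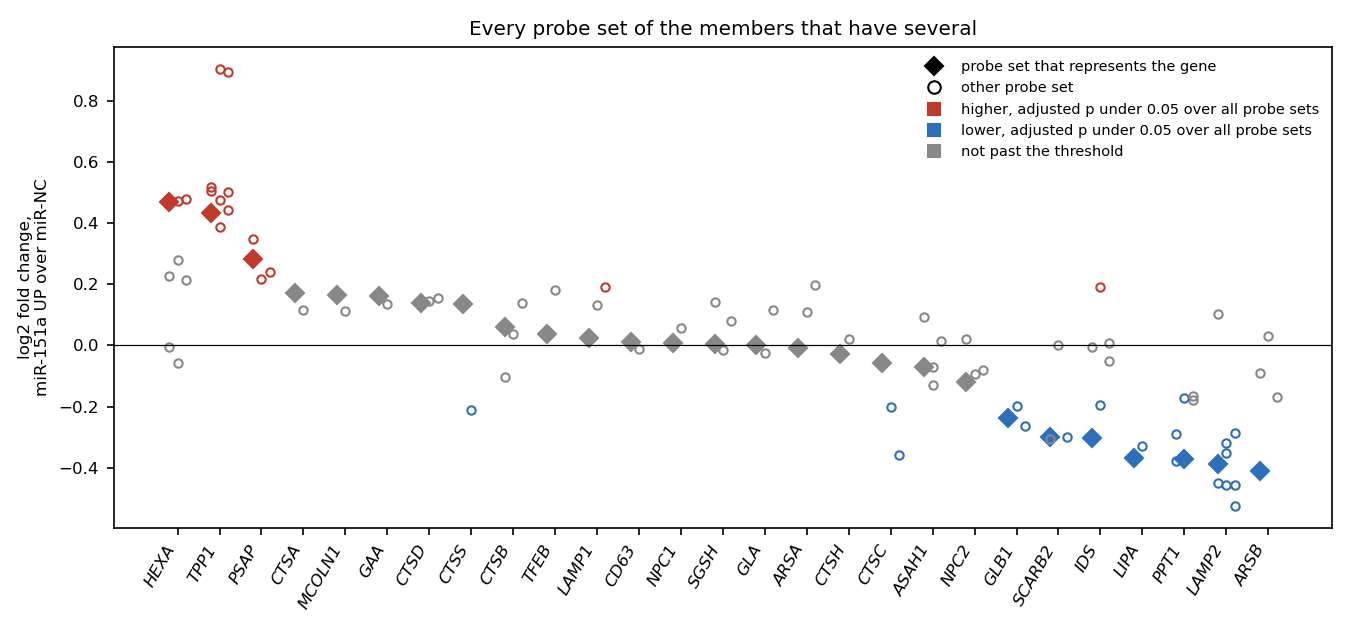
Log2 fold change, miR-151a UP over miR-NC (y axis), of every probe set of the 27 lysosomal genes that have several (x axis, ordered by the representing probe set). Diamonds are the probe sets that represent the genes and circles the others, shifted sideways only to keep them apart; colours give the call over all probe sets. TPP1 and PSAP are red throughout, GLB1 and LIPA blue throughout, and IDS holds both colours.

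Of the 7 glycosidases, 3 rose and 1 fell, where 7.27% of all genes passed as higher and 8.11% as lower. HEXA encodes the alpha subunit of beta-hexosaminidase A, which degrades the ganglioside GM2. It had 759.9, 826 and 799 units with miR-151a, against 581, 578 and 562 with miR-NC, the largest rise among the 35 members in this fit. The groups were far apart, with a 1.38-fold change (log2 fold change 0.47, SE 0.049, adjusted p = 0.00097). The 3 brightest of its 8 probe sets rose, between 0.47 and 0.48. The other 5 were dimmer and did not pass, between -0.06 and 0.28, and the mean over all 8 gave 0.26, still past the threshold (adjusted p range over the alternatives 4.1e-09 to 0.012).

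MAN2B1, a mannosidase of glycoprotein breakdown, had 118, 126 and 122 units with miR-151a and 108, 99.8 and 102 with miR-NC. NAGLU, which takes N-acetylglucosamine off heparan sulfate, had 243, 254 and 249.7 units with miR-151a and 212, 201 and 221 with miR-NC. Neither gene's groups overlapped, and both rose, at 0.24 (adjusted p = 0.019) and 0.24 (adjusted p = 0.020). Each is read by 1 probe set, so no second one could be set beside it. MAN2B1 did not pass without miR-151a UP replicate 2 or 3 or miR-NC replicate 2 or 3 (adjusted p from 0.057 to 0.072; range over the alternatives 0.0053 to 0.072). For NAGLU the same held without miR-151a UP replicate 2 or 3 or miR-NC replicate 1 or 2 (adjusted p from 0.060 to 0.074; range 0.0013 to 0.074). The 3 rises among the glycosidases became 1 without miR-151a UP replicate 3 and without miR-NC replicate 2.

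GLB1, the beta-galactosidase whose activity at near-neutral pH is a common stain for senescent cells, fell. Its intensities were 959.7, 973 and 1009 with miR-151a and 1164, 1147 and 1154 with miR-NC. All 3 probe sets fell past the threshold, between -0.26 and -0.20, and the representing one by 15.1% (log2 fold change -0.24, SE 0.044, adjusted p = 0.011). Against CTSA, its stabilising partner, the log2 ratio of GLB1 was lower in each miR-151a UP sample, between -2.01 and -1.88 with miR-151a and between -1.55 and -1.48 with miR-NC (difference -0.41, exact two-sided permutation p = 0.1, adjusted p = 0.1). GAA, which degrades glycogen, was at 0.16 (adjusted p = 0.24) and passed as higher without miR-151a UP replicate 2 (adjusted p = 0.045, range over the alternatives 0.045 to 0.49). GLA, an alpha-galactosidase of globotriaosylceramide, was at 0.00, with an interval from -0.12 to 0.12, and GUSB, the beta-glucuronidase, at -0.08, with an interval from -0.18 to 0.02.

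Sulfatases remove sulfate from glycans and lipids. Here 2 of 4 fell and 0 rose, where 8.11% of all genes passed as lower and 7.27% as higher. IDS, which acts on heparan and dermatan sulfate, had 1568, 1534 and 1433 units with miR-151a, against 1898, 1822 and 1865 with miR-NC. These values did not overlap (log2 fold change -0.30, SE 0.051, adjusted p = 0.0071). The 6 probe sets of IDS disagreed, however: a second one fell, at -0.19, one rose, at 0.19, and the other 3 lay between -0.05 and 0.01. Averaged over the 6, IDS stood at -0.06, which missed the threshold (adjusted p = 0.37, with alternatives from 6.6e-07 to 0.37).

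ARSB, which acts on dermatan and chondroitin sulfate, had 172, 152 and 146 units with miR-151a and 239, 199.5 and 188 with miR-NC. It had the largest SE of the 13, and the highest miR-151a UP value, 172, came close to the lowest miR-NC value, 188 (log2 fold change -0.41, SE 0.099, adjusted p = 0.030). Its other 3 probe sets were dimmer and did not pass, between -0.17 and 0.03, and the mean over the 4 gave -0.16 (adjusted p = 0.10). ARSB also did not pass without miR-151a UP replicate 2 or 3 or miR-NC replicate 1 or 2 (adjusted p from 0.058 to 0.092; range over the alternatives 0.00018 to 0.10), and the count of falling sulfatases was then 1. ARSA, the sulfatide sulfatase, and SGSH, a heparan sulfatase, stood at -0.01 and 0.01, with intervals from -0.18 to 0.16 and from -0.11 to 0.13. With the mean over probe sets 0 sulfatases passed. SUMF1, the enzyme that activates all sulfatases and is not among the 35, fell, with 575, 584 and 563 units with miR-151a, against 715, 722 and 679 with miR-NC (log2 fold change -0.30, adjusted p = 0.0053).

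In the group that handles lipids and acyl chains, 1 gene rose, 2 fell and 3 did not pass. Of all genes 7.27% passed as higher and 8.11% as lower. PSAP encodes the precursor of the saposins, small proteins that present sphingolipids to their hydrolases. It was higher with miR-151a, at 5289, 5479 and 5509 units, against 4533, 4399.6 and 4458 with miR-NC. The groups were well apart (log2 fold change 0.28, SE 0.044, adjusted p = 0.0050), and all 4 probe sets rose, from 0.22 to 0.35.

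LIPA, the acid lipase of cholesteryl esters and triglycerides, went the other way. Its values were 766, 829.6 and 796 with miR-151a and 1059, 1010.3 and 1018 with miR-NC. All 3 miR-151a UP samples were lower, by 22.5% on average (log2 fold change -0.37, SE 0.049, adjusted p = 0.0028), and its second probe set fell as well, at -0.33.

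PPT1 takes palmitate off proteins on their way to degradation. It had 603, 626 and 553 units with miR-151a, against 797, 735 and 772 with miR-NC, a fall of 22.7% with no overlap (log2 fold change -0.37, SE 0.061, adjusted p = 0.0063). All 6 of its probe sets were negative, from -0.38 to -0.17, and 4 passed. Like TPP1, which rose, PPT1 is a gene of neuronal ceroid lipofuscinosis.

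SMPD1, the acid sphingomyelinase, missed the threshold with 455, 501 and 488 units with miR-151a, against 537, 540.1 and 544 with miR-NC. The groups did not overlap (log2 fold change -0.17, adjusted p = 0.063), and it passed as lower under 5 alternatives (range 0.0047 to 0.16). With a variance trend 4 genes of this group fell, SMPD1 and NPC2 being the added ones. ASAH1, the acid ceramidase, was at -0.07, with an interval from -0.22 to 0.08.

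**Figure D3:**
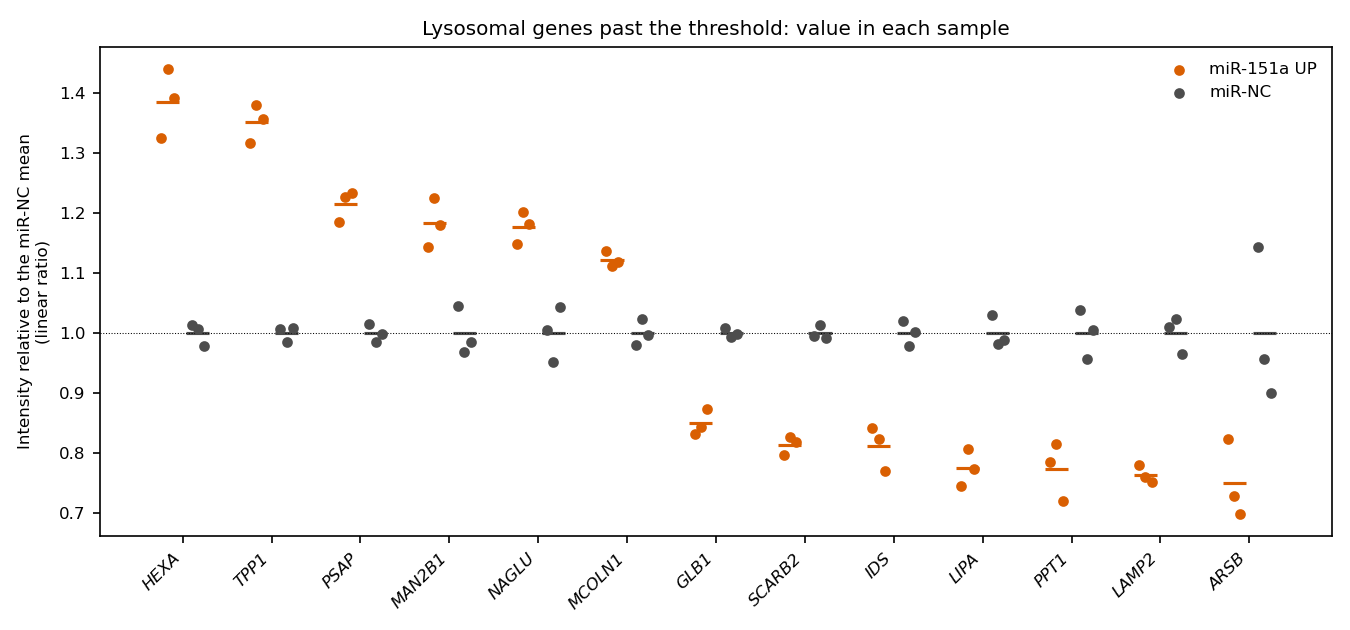
Intensity of the 13 lysosomal genes past the threshold in each of the 6 samples, divided by the mean of the miR-NC samples of that gene (y axis, linear ratio); genes run from the largest rise to the largest fall (x axis). Points are samples, orange for miR-151a UP and grey for miR-NC, and short lines are group means of 3. The groups do not overlap for any of the 13 genes, and the miR-NC points are spread most widely for ARSB.

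Over all 111 probe sets of the members, 20 rose and 25 fell, which is 40.5% of them. Over all 49293 probe sets 14.1% passed, 6.81% higher and 7.27% lower. Probe sets of 1 gene are not independent entries: TPP1 alone gave 9 of the rises and LAMP2 8 of the falls. The falls numbered 16 without miR-151a UP replicate 3, and again 16 where miR-NC replicate 1 or 2 was left out. Among the 11 genes past the threshold that have several probe sets, every probe set passed in the same direction for 4 (TPP1, PSAP, GLB1 and LIPA), and every one had the same sign for 6, which adds PPT1 and MCOLN1. Another probe set passed in the opposite direction for IDS alone. Among the 22 genes that did not pass, 3 had a probe set that did: CTSC, CTSS and LAMP1.

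The wider machinery of the lysosome was read through 7 further lists with 120 entries, of which 110 were measured. Of the 110, 20 rose and 9 fell, which is 29 genes. The share that fell was close to that of all genes, and the share that rose was larger. Over all 18132 genes 15.4% passed, 7.27% higher and 8.11% lower. These shares also stand beside the count of each single list below, where lists are short and a few genes change the share. Leaving out miR-NC replicate 2 gave 12 rises, and leaving out any 1 of the 6 samples gave 2 to 4 falls. The lists were written with earlier results of these data known, so their counts are given as a description, with the median beside that of all genes, -0.01.

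The regulators of TFEB and its relatives held 5 rises and 0 falls among 20 genes, with a median of 0.06; at an unadjusted limma p under 0.05, 8 were higher and 1 lower, against 12.8% and 16.0% of all genes. Under other settings the falls numbered up to 2, with the mean over probe sets. The rises were those of 3 Rag GTPase genes and of FLCN and FNIP1, which form a complex that acts on the Rag proteins RRAGC and RRAGD and so on the release of TFEB; RRAGD and FLCN are also known targets of TFEB and TFE3. RRAGC had 1339, 1327 and 1401 units with miR-151a, against 917, 932 and 967 with miR-NC (log2 fold change 0.53, SE 0.047, adjusted p = 0.00047). FLCN had 155, 171 and 156 with miR-151a and 114, 117 and 119 with miR-NC, and FNIP1 266, 266 and 275 with miR-151a and 203, 188 and 198 with miR-NC. The groups were apart for all 3, and the log2 fold changes of FLCN and FNIP1 were 0.45 and 0.45. RRAGD rose too, at 0.39 (adjusted p = 0.0014). Averaged over its 3 probe sets it stood at 0.13 and missed the threshold (adjusted p = 0.10, with alternatives from 6.4e-08 to 0.10). RRAGB, read by 1 probe set and named after its value was seen, was at 0.50 (adjusted p = 0.0036). The relatives of TFEB, 0.02 for TFE3 and 0.01 for MITF, did not pass (adjusted p = 0.86 and 0.93; both were named after their values were seen).

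The proton pump held 4 rises and 1 fall among 17 genes, with a median of 0.07. The rises belong to subunits of its cytosolic part, which splits ATP. ATP6V1C1 had 1159, 1188 and 1163 units with miR-151a, against 831, 864 and 847 with miR-NC, and ATP6V1B2 had 1012, 1011 and 1069 with miR-151a, against 857, 828 and 803 with miR-NC. Neither pair of groups overlapped (log2 fold change 0.46, adjusted p = 0.00054, and 0.31, adjusted p = 0.0053). Averaged over its 5 probe sets ATP6V1C1 was at 0.19, still past the threshold. ATP6V1G1 and the membrane subunit ATP6V0E2, at 0.20 and -0.22, lost their calls with the mean over probe sets (adjusted p = 0.19 and 0.85, ranges 4e-05 to 0.19 and 0.00037 to 0.85). The 4 rises became 2 without miR-151a UP replicate 2 or any of the 3 miR-NC samples, and the fall was lost without miR-151a UP replicate 1 or 2 or miR-NC replicate 2 or 3.

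Other membrane proteins and transporters held 3 rises and 2 falls among 17 genes (median -0.03). The rises were those of CLCN7, a chloride and proton exchanger, at 0.42, CLN3, a membrane protein of ceroid lipofuscinosis, at 0.40, and CTNS, the cystine exporter, at 0.36, with adjusted p of 0.0015, 0.0018 and 0.0059. Each was separated by group, as in CLCN7 with 380.1, 399 and 395 units with miR-151a, against 281, 291 and 303 with miR-NC. LAPTM4B, a transmembrane protein of late endosomes, fell (log2 fold change -0.28, adjusted p = 0.018). The 2 falls became 0 without miR-151a UP replicate 1 or 3 or miR-NC replicate 1 or 2, and 1 without either other sample.

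Among 19 further hydrolases and activators, 1 rose and 3 fell (median -0.02). NEU1, the sialidase that works in a complex with CTSA and GLB1, rose (0.20, adjusted p = 0.021). GM2A, the activator that presents GM2 to beta-hexosaminidase A, fell (-0.23, adjusted p = 0.038), as did GGH, a folate hydrolase (-0.18, adjusted p = 0.033). Of these, only the fall of SUMF1 kept its call without each of the 6 samples: adjusted p reached 0.074 for NEU1, 0.12 for GM2A and 0.10 for GGH without 1 sample. The falls were then 1 without any sample other than miR-151a UP replicate 2. NEU1 did not pass without any sample other than miR-151a UP replicate 1.

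Enzyme delivery held 1 rise and 2 falls among 13 genes (median -0.02). GNPTAB, which makes the mannose 6-phosphate tag, fell, with 143, 130.0 and 140.2 units with miR-151a, against 172, 169 and 173 with miR-NC (log2 fold change -0.32, adjusted p = 0.0059). AP1S1, an adaptor subunit for vesicles from the Golgi, fell as well (-0.21, adjusted p = 0.024), and CLN8, which helps enzymes leave the endoplasmic reticulum, rose (0.22, adjusted p = 0.016). Averaged over its 4 probe sets CLN8 was at 0.03 (adjusted p = 0.77, range 0.0025 to 0.77), and its rise was lost without miR-151a UP replicate 3 or miR-NC replicate 1 or 2. The falls became 1 without miR-151a UP replicate 1 or 2 or any miR-NC sample.

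Of 16 genes of fusion, sorting and endosomes, 5 rose and 0 fell (median 0.07). RAB9A, which returns mannose 6-phosphate receptors from endosomes to the Golgi, had 508, 538 and 552 units with miR-151a, against 339, 331 and 334 with miR-NC. That was a 1.59-fold rise with groups far apart (log2 fold change 0.67, SE 0.049, adjusted p = 0.00017). VPS11 and VPS41, subunits of the tethering complex for fusion with lysosomes, and PLEKHM1, an adaptor of the same step, were at 0.28, 0.26 and 0.25. Averaged over its 3 probe sets VPS41 was at 0.13 (adjusted p = 0.057, range 0.00016 to 0.062). The 5 rises became 2 when miR-151a UP replicate 2, miR-151a UP replicate 3 or miR-NC replicate 3 was left out, 3 when miR-NC replicate 1 was, and 1 when miR-NC replicate 2 was.

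Among 8 cathepsin inhibitors 1 rose and 1 fell. CSTA, stefin A, an inhibitor of cysteine cathepsins in the cytosol and an epithelial gene, rose 1.91-fold. Its intensities were 179, 205 and 178 with miR-151a, against 110.0, 96.0 and 86.9 with miR-NC, with no overlap (log2 fold change 0.94, SE 0.094, adjusted p = 0.00080). CST7, a secreted cystatin of immune cells, was called lower (-0.23, adjusted p = 0.045) at mean intensities of 9.68 with miR-151a and 11.5 with miR-NC, which are under the lower quartile of each array, and the call was lost without miR-151a UP replicate 2 or 3 or miR-NC replicate 2 or 3. It was also lost with a pseudocount of 32, which gave -0.06 (adjusted p = 0.18), and with a variance trend (adjusted p = 0.063), in a range from 0.022 to 0.18.

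**Figure D4:**
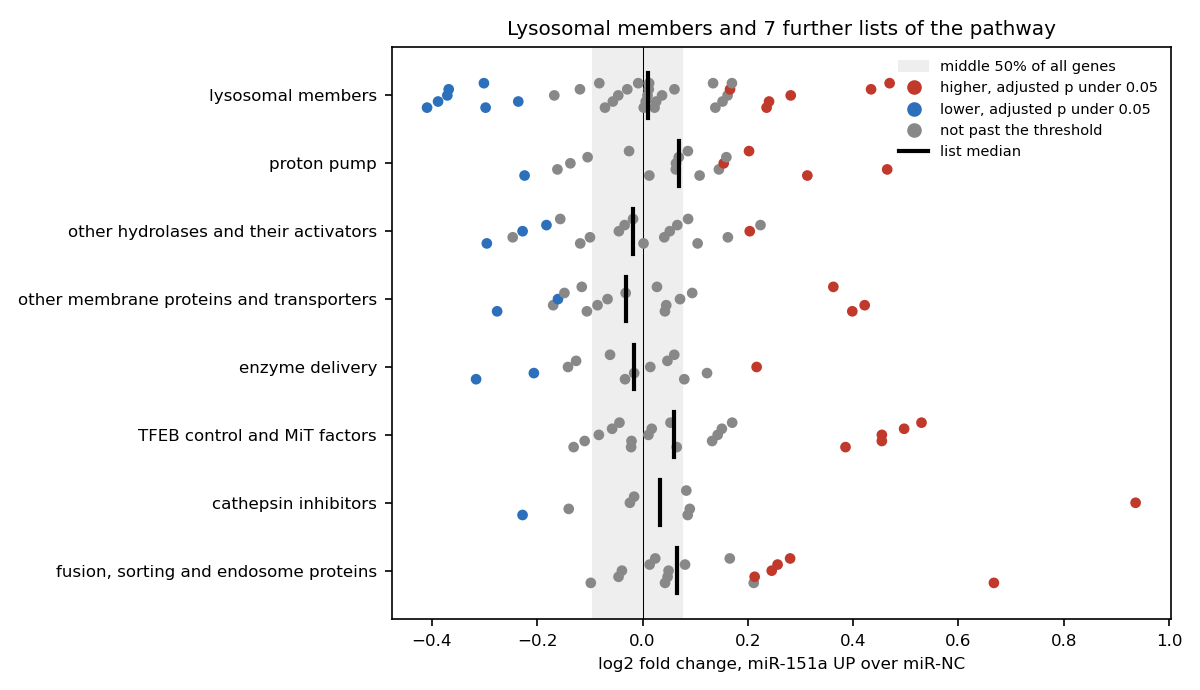
Log2 fold change of single genes, miR-151a UP over miR-NC (x axis), for the 35 lysosomal members and 7 further lists of the pathway (y axis). Each point is a gene, coloured by its call in limma, black lines are list medians and the grey band holds the middle 50% of all genes. The medians lie between -0.03 and 0.07, inside the band, and the 5 red points among the TFEB regulators lie between 0.39 and 0.53.

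The arrays were alike in scale, with median intensities from 57.1 to 58.6, and Pearson correlations over probe sets were 0.9980 to 0.9984 within groups and 0.9956 to 0.9958 between them. The identity of the cells was read from 9 measured markers. VIM, CD44 and FN1, mesenchymal genes typical of this line, lay above the upper quartile in all 6 samples, as did CHI3L1. Of the glial markers GFAP lay just above the median, S100B and SOX2 below it and OLIG2 around it. NES lay above the median in all 6 samples and fell, at -0.31. Because macrophages are rich in lysosomes, 10 macrophage markers were followed. Of these 1, CD163, rose (0.66, adjusted p = 0.0062) at mean intensities of 16.3 with miR-151a and 9.90 with miR-NC. Its values lay under the lower quartile of the array in all 3 miR-NC samples and in miR-151a UP 1 and 3. The defining markers PTPRC and CD14 lay below the lower quartile of the array in all 6 samples. CSF1R and TYROBP, however, lay above the median in all 6, and CD68 above the upper quartile. AIF1, ITGAM, CD163 and LAPTM5 were below the median in all 6, and FCER1G was around it. The summed intensity of the 10 was 1329 to 1415 with miR-151a and 1293 to 1390 with miR-NC, and without CD68, which other cells with many lysosomes also make, it was 317 to 349 with miR-151a and 324 to 369 with miR-NC. As a measure of RNA quality, control probe sets at the 3′ and 5′ ends of a transcript were compared: the log2 ratio of 3′ over 5′ was 0.269 to 0.300 with miR-151a and 0.367 to 0.426 with miR-NC for beta-actin, and 0.0446 to 0.0523 with miR-151a and 0.0290 to 0.0491 with miR-NC for GAPDH; the part of this difference in the lysosomal values was not tested.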

How the data were processed

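RNA of 6 U87 samples was measured on Affymetrix arrays, 3 per group. The authors deposited 1 processed intensity per probe set and sample on a linear scale; the submitters' processing notes name MAS5, without its settings. The members and lists were chosen with earlier results of these data known. Of 49293 probe sets, after 102 controls were left out, 44988 named 1 gene, 1832 several and 2473 none, and 44961 of the first were matched to RefSeq by Entrez identifier. The brightest probe set stood for each of 18132 genes. The log2 of the deposited intensity plus 1 was tested with limma 3.58.1 (R 4.3.3; lmFit, eBayes) and Benjamini-Hochberg adjustment over all genes, threshold 0.05, after a test on simulated data. Values in every sample are given for the members that passed and for LAMP1, LAMP2, CTSB, CTSD, CTSL, NPC1, MCOLN1 and TFEB, and up to 4 genes that passed are named per pathway list, by smallest p; others were named after their values were seen. The number of arrays limits the precision, and an exact permutation test of 3 against 3 samples cannot go below 0.1. The results were recomputed with arrays made equal by quantiles or by their medians, with 32 in place of 1 added before the logarithm, without probe sets under the 0.25 quantile of mean level, with limma's trended and robust variance, with array weights, with a replicate block, with all probe sets of a gene averaged, with a minimum change, and leaving out each sample in turn. Log2 fold changes understate changes of dim probe sets slightly.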

Additional observations from a re-analysis of the deposited data

How the results depend on the processing

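None of the 13 lysosomal genes that passed turned direction under any alternative, and LAMP2, SCARB2, TPP1, HEXA, GLB1, LIPA, PPT1 and PSAP kept their calls under all 14 that set no limit on size. Leaving out 1 sample, 9 to 12 members passed, 3 to 5 higher and 6 or 7 lower. Over all genes the count was then 1709 to 2017 (887 to 1102 higher, 800 to 1021 lower), over probe sets 4082 to 4805 (2171 to 2689 higher, 1893 to 2426 lower) and over the further pathway lists 14 to 21 (12 to 18 higher, 2 to 4 lower). Requiring a log2 change of at least 1 left 0 members and 0 pathway genes in either direction, 78 genes (78 higher, 0 lower) and 159 probe sets (158 higher, 1 lower). The variance trend gave 4231 genes (2388 lower) and 10649 probe sets (5856 lower), and a pseudocount of 32 gave 2218 genes and 5396 probe sets that were lower. The mean over probe sets gave 15 pathway genes that were lower. Deviations of same-numbered samples correlated at -0.11, -0.15 and 0.07, and those of differently numbered samples at up to 0.16. Deviations within a group of 3 are tied to each other, so these values cannot decide whether samples were paired. With a replicate block the counts were 1727 genes (822 lower), 4378 probe sets (2052 lower), 3 members higher and 18 pathway genes (3 lower). MCOLN1, MAN2B1 and NAGLU were the rises among the members that did not pass with it (adjusted p = 0.10, 0.070 and 0.063). Of the pathway genes, ATP6V1G1 (0.058), NEU1 (0.057), VPS11 (0.054) and CST7 (0.12) did not pass either. The same held for GGH (0.074), GM2A (0.054), LAPTM4B (0.055) and AP1S1 (0.076). Directions turned for 10 members, all among those that did not pass, in 27 of 523 alternatives. These were CD63 (-0.00090 with quantile normalization, -0.00086 with median centring, -0.00033 with the mean over probe sets), NPC1 (-0.0033, median centring), CTSS (-0.039, mean over probe sets), CTSZ (-0.00013 with median centring, -0.0013 with array weights), GLA (-0.010, median centring), ARSA (0.021 with array weights, 0.10 with the mean over probe sets) and SGSH (-0.00052 with quantile normalization, -0.0067 with median centring, -0.011 with array weights). Without 1 sample LAMP1 ranged from -0.0016 to 0.036, NPC1 from -0.016 to 0.038, CTSH from -0.094 to 0.053, CTSZ from -0.081 to 0.080, GLA from -0.033 to 0.026, ARSA from -0.069 to 0.066, SGSH from -0.022 to 0.038 and TFEB from -0.039 to 0.10. The causes of these changes were not tested.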
